A study of Mus musculus with 12 samples.

Results

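The Hox genes are the transcription factor genes of the HoxA, HoxB, HoxC and HoxD clusters, and they were taken here as every row of the mouse expression table whose symbol is Hox followed by a cluster letter and a paralogue number. RefSeq lists 39 such genes in the mouse, and 30 of them were found among the 25070 rows of the table. These were 9 of 11 HoxA, 9 of 10 HoxB, 7 of 9 HoxC and 5 of 9 HoxD genes. Hoxa11, Hoxa13, Hoxb13, Hoxc10, Hoxc11, Hoxd1, Hoxd11, Hoxd12 and Hoxd13 were not analysed here. All 12 libraries of the series were used, with each level given in CPM, a gene's reads per M (mega) reads in that library.

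Skin RNA was sequenced from mice infested with ticks, with biopsies taken at day 4 after attachment. The naive group was unbitten skin (n = 2), and the other groups were bitten skin from mice on a first exposure (n = 3), from mice labelled ticks 2x (n = 3) or ticks 3x (n = 3), and from 1 mouse labelled saliva immune (n = 1). The saliva immune library has no replicate and was only described. The body site of the biopsies, the strain, age and sex of the mice and the tick species were not stated in the sources used, nor was it stated whether each library came from a separate mouse, so p-values measure only the spread between these libraries. The sample titles carry a series number, 4 for first exposure and saliva immune and 6 for naive, 2x and 3x, so that first exposure and title series cannot be told apart.

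Hox proteins are homeodomain transcription factors that set the identity of a body segment along the axis from head to tail. Within a cluster, genes with low paralogue numbers are switched on first and nearest the head, and genes with high numbers later and nearer the tail or the tips of the limbs. Fibroblasts of adult skin keep a Hox pattern that reflects the body site they come from, and Hoxc13 is in addition a regulator of hair keratin genes in the hair follicle.

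Estimated depth ran from 12.5 M to 29.8 M (mega) reads per library, and the detection floor of 3 reads lay between 0.101 and 0.240 CPM, which covers counting error only. Keratinocyte genes were high in every library, with a list mean of at least 8.56 on the log2(CPM + 1) scale. The libraries were unequal in hair follicle and muscle RNA within groups. All 23 hair follicle genes found in the table reached the floor in 6 libraries, naive 1, first exposure 1 and 2, 2x 1, and 3x 1 and 2, and their sum there was between 1569 and 36290 CPM. It was between 47.2 and 228 CPM in the other 6, where 11 to 22 of the 23 reached the floor. Hair keratin genes Krt25, Krt33b, Krt35 and Krt71 were each listed with no read in 1 or more of these. The sum of 18 skeletal muscle genes ran from 2613 to 33210 CPM within 2x alone.

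The windows of 250 bases upstream of 4 Hox start sites are shown, because these genes stand for the blocks described below: Hoxa2 for the low paralogue numbers, Hoxb8 for the middle block, Hoxa9 for the high numbers, and Hoxd8 for the HoxD cluster. They were read from RefSeq promoters of GRCm38, 5′ to 3′ on the strand of the gene. Capitals mark matches to TGATTNAT, a site type bound by Hox proteins together with PBX cofactors, and TTTATNG, a site type bound by caudal factors. Hoxa2 lies at chr6:52164832-52165081, minus strand, Hoxb8 at chr11:96281655-96281904, plus strand, Hoxa9 at chr6:52227371-52227620, minus strand, and Hoxd8 at chr2:74704365-74704614, plus strand.
Hoxa2: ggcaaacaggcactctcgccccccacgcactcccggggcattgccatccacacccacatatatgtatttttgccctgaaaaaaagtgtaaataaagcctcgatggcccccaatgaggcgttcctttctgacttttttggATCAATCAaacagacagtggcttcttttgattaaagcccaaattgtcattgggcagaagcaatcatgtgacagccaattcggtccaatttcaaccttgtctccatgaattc
Hoxb8: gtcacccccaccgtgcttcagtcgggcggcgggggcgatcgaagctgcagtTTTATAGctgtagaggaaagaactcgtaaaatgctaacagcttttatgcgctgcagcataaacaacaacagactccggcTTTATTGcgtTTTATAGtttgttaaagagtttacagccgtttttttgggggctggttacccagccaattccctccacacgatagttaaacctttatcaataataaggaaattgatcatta
Hoxa9: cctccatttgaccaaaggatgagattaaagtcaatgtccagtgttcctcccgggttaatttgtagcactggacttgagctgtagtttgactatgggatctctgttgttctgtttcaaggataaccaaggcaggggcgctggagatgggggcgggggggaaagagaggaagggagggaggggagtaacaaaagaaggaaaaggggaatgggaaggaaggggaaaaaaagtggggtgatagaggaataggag
Hoxd8: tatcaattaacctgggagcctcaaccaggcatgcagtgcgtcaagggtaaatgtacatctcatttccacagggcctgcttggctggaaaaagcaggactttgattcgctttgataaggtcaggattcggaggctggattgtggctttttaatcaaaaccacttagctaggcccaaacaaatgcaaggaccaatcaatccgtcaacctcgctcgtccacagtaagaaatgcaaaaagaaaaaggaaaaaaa

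Both strands were searched, and no 2 of the marked matches overlap. The Hoxa2 window holds 1 match to TGATTNAT, on the opposite strand, and the Hoxb8 window holds 3 matches to TTTATNG, while Hoxa9 and Hoxd8 hold neither. The promoter table covered 22 Hox genes with 24 windows, among them 14 of the 27 genes tested below. TTTATNG was found in 2 of the 24 Hox windows and in 9.81% of all 32851 promoter windows of the same length. TGATTNAT was found in 2 of 24 and 2.83%, and the homeodomain core TAATTA in 2 of 24 and 4.84%. Both windows with TAATTA, and 1 of those with TGATTNAT, belong to Hoxd11, which was not analysed here. A match describes letters in these windows only. The Hox windows held a median of 12.5 CpG dinucleotides (range 2 to 35), against 6 over all promoter windows.

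Of the 30 Hox genes found, 27 reached 1 CPM in at least 2 of the 11 libraries of the groups with replicates and were tested, and 22 of these were at or above the floor in all 12 libraries. Hoxb1, Hoxc12 and Hoxa6 were below that level, with highest values of 0.334, 0.455 and 1.11 CPM. Levels of different genes are compared here per kb of exon. Hoxc13 led with a mean over the 12 libraries of 23.6 CPM per kb, ahead of Hoxd8 at 9.27, Hoxc6 at 7.59, Hoxb4 at 5.91, Hoxa5 at 4.78 and Hoxc8 at 4.37 CPM per kb. It did not lead by median, which was 12.5 CPM for Hoxc13, not divided by exon length. The medians were 25.1 CPM for Hoxd8, 17.3 for Hoxc6, 13.6 for Hoxb4, 8.77 for Hoxa5 and 8.80 for Hoxc8. The genes of paralogue number 9 other than Hoxd9 were low, at 0.393 CPM per kb for Hoxb9, 0.253 for Hoxa9 and 0.156 for Hoxc9, and Hoxd9 was at 3.31. Hoxc12, the neighbour of Hoxc13, was at 0.116 CPM per kb.

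**Figure D1:**
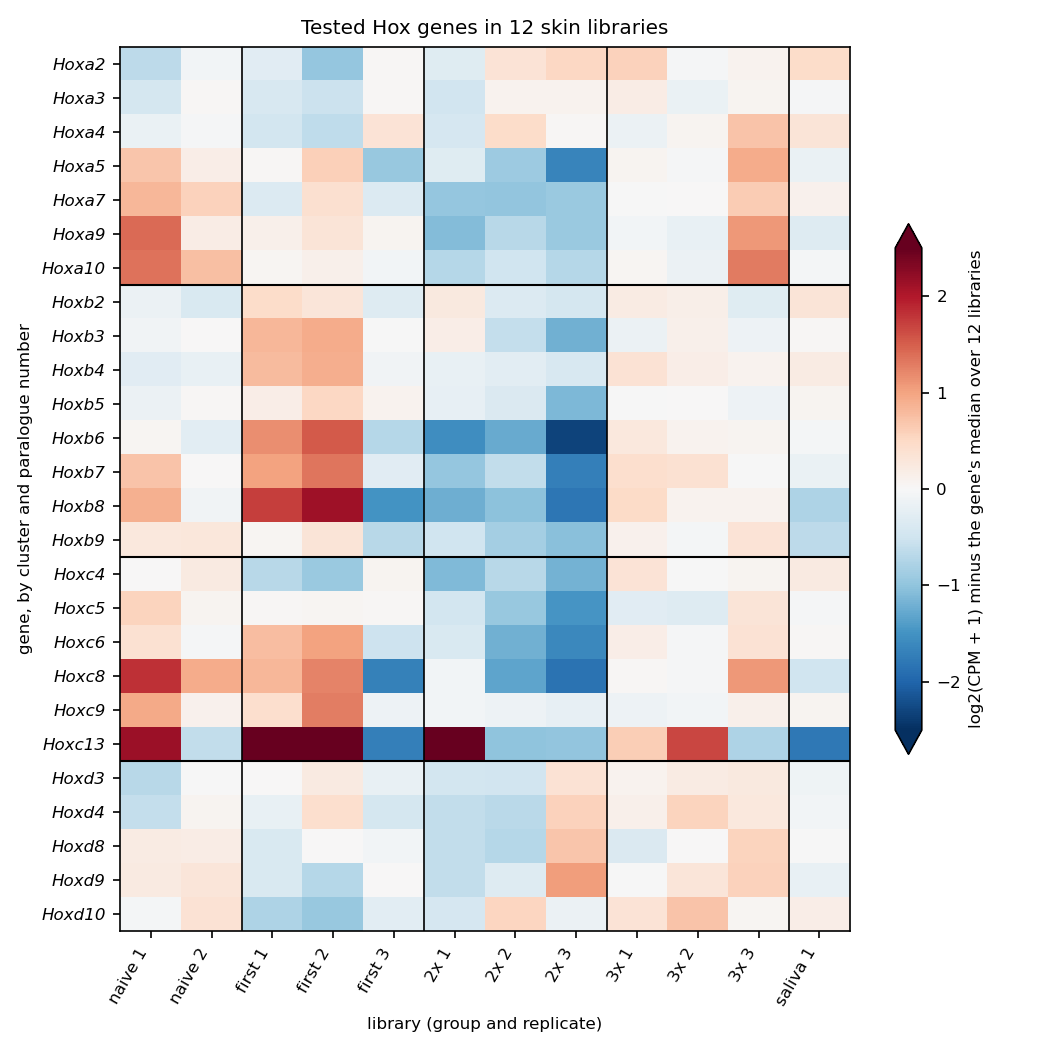
Level of 26 of the 27 tested Hox genes (rows, by cluster and paralogue number) in each of the 12 libraries (columns, by group), as log2(CPM + 1) minus the median of that gene over the 12 libraries; the colour scale is clipped at both ends. The 2x columns are blue for most genes of paralogue numbers 5 to 10 in HoxA, HoxB and HoxC, while the rows of Hoxd3, Hoxd4, Hoxd8 and Hoxd9 are red in 2x replicate 3.

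The tested genes other than Hoxc13 were read as 3 blocks by paralogue number, of which numbers 5 to 8 had the widest range over the libraries. Hoxc13 itself, described below, varied more than any other of the 27, with an SD of 2.25 over the 12 libraries (log2(CPM + 1)). The 10 tested genes of paralogue numbers 5 to 8 had a mean of 3.598 and 3.16 in the naive libraries (log2(CPM + 1)), 3.50, 3.88 and 2.40 in first exposure, 2.32, 2.06 and 1.62 in 2x, 3.07, 3.01 and 3.39 in 3x, and 2.85 in saliva immune. All 2x libraries lay below every naive and every 3x library, and first exposure replicate 3 lay close to them. The 10 tested genes of numbers 1 to 4 were at 2.34 and 2.61 in naive, 2.66, 2.56 and 2.67 in first exposure, 2.32, 2.52 and 2.55 in 2x, 2.91, 2.80 and 2.81 in 3x, and 2.86 in saliva immune. Here too all 2x libraries lay below all 3x libraries, by less, while 2x and naive overlapped. The whole range of this block mean over the 12 libraries was narrower than the range of the middle block within first exposure or between 2x and naive. Single clusters ran wider. The mean of the 4 HoxA genes of numbers 1 to 4 ran from 1.39 in first exposure replicate 2 to 2.53 in 2x replicate 2. The mean of Hoxb2 to Hoxb5 ran from 2.02 in 2x replicate 3 to 3.48 in first exposure replicate 2. The 6 genes of numbers 9 and 10 were at 1.88 and 1.53 in naive, 1.10, 1.25 and 1.009 in first exposure, 0.622, 0.865 and 0.858 in 2x, 1.23, 1.28 and 1.77 in 3x, and 1.03 in saliva immune. In bulk skin, fewer cells that express a gene and less RNA of it per cell cannot be told apart.

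**Figure D2:**
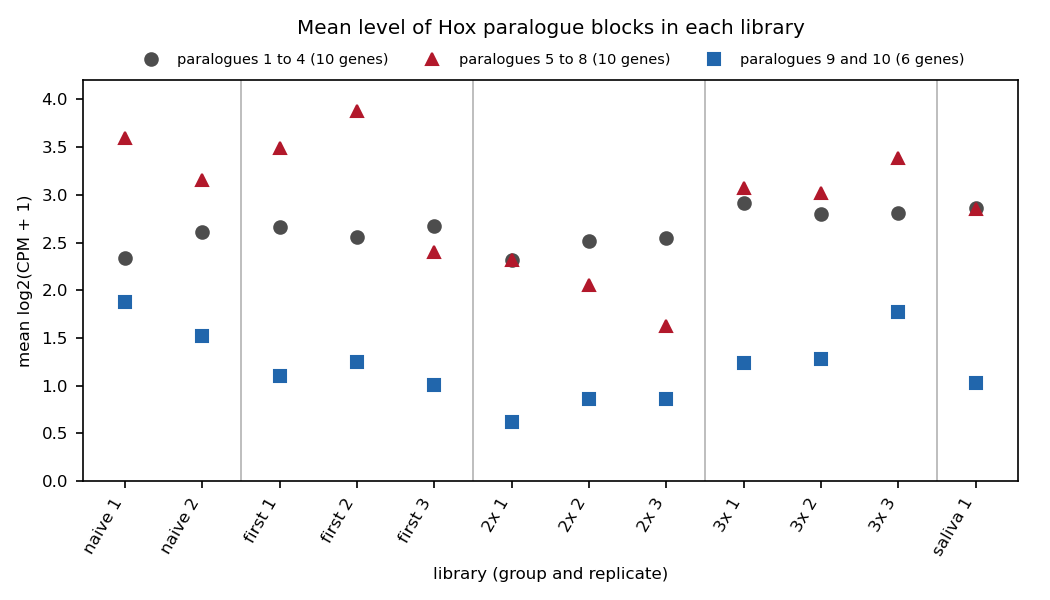
Mean log2(CPM + 1) of 3 blocks of tested Hox genes, by paralogue number (y axis), in each of the 12 libraries (x axis, by group); each symbol is 1 block in 1 library. The triangles (numbers 5 to 8) run from 1.62 in 2x replicate 3 to 3.88 in first exposure replicate 2, while the circles (numbers 1 to 4) stay between 2.32 and 2.91.

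HoxA showed the split within 1 cluster. Hoxa3, of the low block, was at 5.68 and 8.24 CPM in naive, 5.90, 5.30 and 8.36 in first exposure, 5.56, 8.63 and 8.73 in 2x, 9.32, 7.10 and 8.59 in 3x and 7.99 in saliva immune, with all groups overlapping. Hoxa5 was at 14.8 and 9.99 CPM in naive, 8.98, 13.7 and 4.05 in first exposure, 6.88, 4.17 and 2.11 in 2x, 9.25, 8.55 and 17.5 in 3x and 7.72 in saliva immune. Its 3 values in 2x lay below all naive and all 3x values. Hoxa7 (chr6:52215623-52218573, minus strand) was at 8.46 and 6.95 CPM in naive, 3.22, 6.07 and 3.24 in first exposure, 1.72, 1.69 and 1.80 in 2x, 4.33, 4.35 and 7.32 in 3x and 4.72 in saliva immune. Its 2x libraries were the 3 lowest of the 12. Hoxa9 and Hoxa10 went the same way at lower levels: Hoxa9 was at 4.67 and 1.44 CPM in naive and at 0, 0.317 and 0.124 in 2x, and Hoxa10 at 3.16 and 1.76 in naive and at 0, 0.159 and 0 in 2x, so most of these 2x values rest on 3 reads or fewer. The rows of Hoxa3, Hoxa4, Hoxa5 and Hoxa6 overlap in the annotation and their reads may have been shared, since how reads were counted, and with what use of strand, is not given in the sources used here.

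HoxB spread most at Hoxb6 and Hoxb8. Hoxb2 was at 9.40 and 7.75 CPM in naive, 14.8, 13.1 and 8.11 in first exposure, 12.5, 7.98 and 7.45 in 2x, 12.1, 11.6 and 8.27 in 3x and 13.2 in saliva immune, and its groups overlapped. Hoxb4 was at 11.0 and 11.7 CPM in naive, 24.3, 26.4 and 12.7 in first exposure, 11.8, 11.1 and 9.99 in 2x, 17.7, 15.2 and 14.4 in 3x and 15.7 in saliva immune. First exposure replicates 1 and 2 were the highest of the 12, and all 3 first exposure values lay above naive. Hoxb6 was at 5.78 and 4.47 CPM in naive, 13.7, 17.9 and 2.98 in first exposure, 1.23, 1.74 and 0.310 in 2x, 6.86, 5.94 and 5.88 in 3x and 5.30 in saliva immune. It was thus below 2 CPM in every 2x library and in no other. The lowest value, in 2x replicate 3, rests on about 5 reads. Hoxb3 and Hoxb4 overlap in the annotation, so the split of reads between them is uncertain.

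HoxC held the gene with the largest log2 fold change between groups, Hoxc8 in 2x against naive, on the log2(CPM + 1) scale. Hoxc8, a mid-trunk gene, was at 33.8 and 17.6 CPM in naive, 16.3, 22.3 and 2.03 in first exposure, 8.31, 2.91 and 1.74 in 2x, 9.05, 8.55 and 19.9 in 3x and 5.93 in saliva immune. The naive and 2x values did not overlap, but 1 first exposure library lay among the 2x values. Hoxc6 was at 22.8 and 17.0 CPM in naive, 30.3, 36.0 and 11.8 in first exposure, 13.03, 6.92 and 5.03 in 2x, 19.5, 16.9 and 22.5 in 3x and 17.6 in saliva immune. Hoxc5 was at 8.66 and 5.83 CPM in naive, 5.66, 5.74 and 5.65 in first exposure, 3.74, 2.38 and 1.37 in 2x, 4.38, 4.25 and 7.17 in 3x and 5.42 in saliva immune. For both genes the 2x values were below every naive and every 3x value. Hoxc4 did likewise although its number is low, at 11.95 and 14.0 CPM in naive, 6.99, 5.79 and 12.5 in first exposure, 4.97, 6.92 and 4.66 in 2x, 15.4, 11.8 and 12.6 in 3x and 14.0 in saliva immune.

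Hoxd3, Hoxd4, Hoxd8 and Hoxd9 all had their highest value of the 12 in 2x replicate 3. Hoxd10 did not, at 0.931 CPM there. Hoxa2 and Hoxa3 were also near the top of their ranges in that library, at 4.90 and 8.73 CPM. Hoxd8 was at 29.2 and 28.6 CPM in naive, 19.1, 25.2 and 24.0 in first exposure, 15.9, 14.9 and 41.4 in 2x, 19.2, 25.1 and 37.6 in 3x and 25.1 in saliva immune. Hoxd9 was at 7.76 and 8.23 CPM in naive, 4.75, 3.57 and 6.60 in first exposure, 3.93, 5.02 and 14.4 in 2x, 6.42, 8.32 and 10.3 in 3x and 5.58 in saliva immune. Both had their highest value of the 12 in 2x replicate 3, while 2x replicates 1 and 2 were among the lowest. Hoxd4 was at 5.47 and 9.27 CPM in naive, 7.66, 12.1 and 6.25 in first exposure, 5.46, 5.12 and 13.7 in 2x, 9.73, 13.4 and 10.8 in 3x and 8.42 in saliva immune, and Hoxd3, whose annotation overlaps it, was also highest in 2x replicate 3, at 4.35 CPM. The same library held the lowest of the 12 values for 14 of the 27 tested genes, among them Hoxb2 to Hoxb9, Hoxc4 to Hoxc6, Hoxc8 and Hoxc9. How large a share of all genes was lowest in this library was not counted. Summed over the genes found, HoxD was at 74.7 CPM in 2x replicate 3 and at 27.9 and 29.2 CPM in the other 2x libraries. HoxC without Hoxc13 was at 12.9 CPM there and at 30.3 and 19.2 CPM in the other two. Muscle RNA moved with HoxD in these groups. The mean of the 18 skeletal muscle genes, all at or above the floor in every library, was 6.53, 6.79 and 10.2 in 2x, 7.55, 8.20 and 10.51 in 3x, 10.02 and 9.28 in naive and 9.10, 9.34 and 9.72 in first exposure (log2(CPM + 1)). In both 2x and 3x, replicate 3 was thus highest in muscle genes and in Hoxd8 and Hoxd9. Hoxd10 was highest in replicate 2 of both groups, and Hoxd4 was highest in replicate 2 of 3x. The part of muscle RNA in the HoxD levels was not tested.

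The other tested genes were lower or more variable. In HoxA, Hoxa2 ran from 1.11 to 5.21 CPM over the 12 libraries and Hoxa4 from 1.45 to 5.18, and both had their lowest value in first exposure replicate 2. In HoxB, Hoxb3 ran from 0.435 to 5.24 CPM, Hoxb5 from 1.06 to 5.46, Hoxb7 from 0.559 to 11.9, Hoxb8 from 0.248 to 18.0 and Hoxb9 from 0.0622 to 1.79, each with its lowest value in 2x replicate 3. Hoxb8, a trunk gene, was at 7.15 and 3.12 CPM in naive, 13.5, 18.0 and 0.561 in first exposure, 0.885, 1.16 and 0.248 in 2x, 5.11, 3.69 and 3.69 in 3x and 1.56 in saliva immune. Its first exposure libraries thus held the highest and the next to lowest of the 12 values. Hoxc9 ran from 0 to 1.78 CPM, Hoxd3 from 1.58 to 4.35 and Hoxd10 from 0.112 to 2.48.

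Hoxc13 (chr15:102921131-102928814, plus strand) followed the hair follicle genes. It was at 53.3 and 7.03 CPM in naive, 178, 193 and 2.76 in first exposure, 186, 5.12 and 5.21 in 2x, 18.0, 38.5 and 6.23 in 3x and 2.57 in saliva immune. Every replicated group therefore held both high and low libraries, and all groups overlapped. The 3 libraries with 178 CPM or more were those with the highest hair follicle means, 8.95, 9.24 and 8.79 on the log2(CPM + 1) scale. The 3 libraries between 18.0 and 53.3 CPM had hair follicle means of 5.02, 6.56 and 7.42, and the 6 at 7.03 CPM or less had means between 0.720 and 2.59. The other HoxC genes summed to 78.5 and 54.6 CPM in naive and 60.2, 71.9 and 32.0 in first exposure. They summed to 30.3, 19.2 and 12.9 CPM in 2x and 48.6, 41.8 and 62.4 in 3x. In naive, first exposure and 2x this sum was highest in the library with the highest Hoxc13. In 3x it was lowest there. Hoxc13 made up 62.4% of all Hox CPM in 2x replicate 1 and 1.53% in saliva immune. Its log2 fold changes were 1.28 (SE 1.99) for first exposure, -0.12 (SE 1.99) for 2x and -0.25 (SE 1.99) for 3x against naive, each smaller than its SE.

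**Figure D3:**
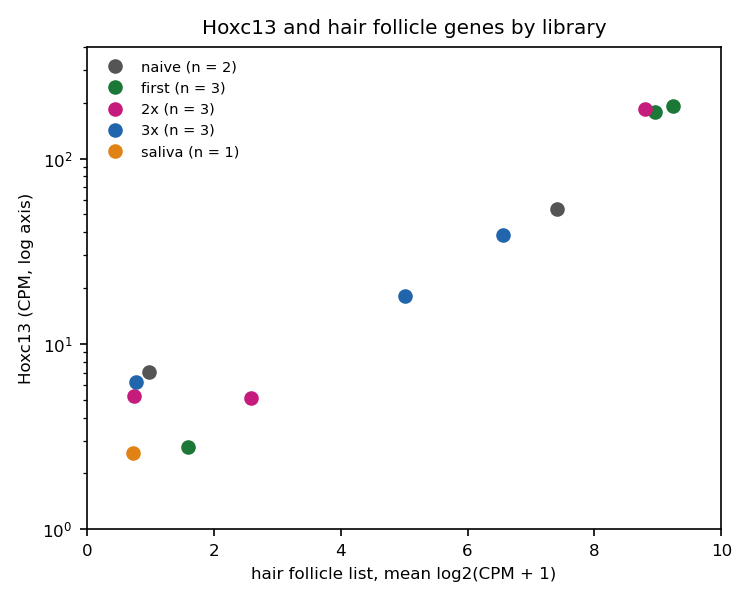
Hoxc13 level in CPM (y axis, log scale) against the mean log2(CPM + 1) of 23 hair follicle genes (x axis), 1 point per library, coloured by group. The points run from 2.57 CPM at a hair follicle mean of 0.720 to 193 CPM at 9.24, with first exposure libraries at the high end and near the low end.

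In 2x skin, 9 of the 10 genes of numbers 5 to 8 lay below naive skin without overlap, the exception being Hoxd8, and 1 of the 10 of numbers 1 to 4 did, Hoxc4. Of the 27 genes tested, 14 had all 3 libraries of 2x below both naive libraries, and 0 had them all above. Over all 17064 genes tested, 12.8% lay lower without overlap and 14.7% higher. The Hox genes were read in the same libraries, and some overlap in the annotation. Counts of them, here and in the comparisons below, are therefore not counts of independent observations. The 14 were Hoxa5, Hoxa7, Hoxa9, Hoxa10, Hoxb5 to Hoxb9, Hoxc4 to Hoxc6, Hoxc8 and Hoxc9, and no HoxD gene was among them. The 10 genes of numbers 5 to 8 all had log2 fold changes below 0, with a median of -1.43, against a median of 0.10 for numbers 1 to 4 and 0.01 over all genes. Hoxa7 had the smallest p, at 1.74 ± 0.0566 CPM in 2x (SD, n = 3) against 7.71 ± 1.07 in naive (SD, n = 2), a log2 fold change of -1.66 (SE 0.28; limma adjusted p = 0.175). Hoxc8 had the largest log2 fold change in size on the log2(CPM + 1) scale, -2.46 (SE 0.85; limma adjusted p = 0.364). By limma, 0 of 27 Hox genes passed an adjusted p of 0.05 over all genes, where 0.0352% of all genes did, and 11 of 27 had an unadjusted p below 0.05, where 10.9% of all genes did. Markers of other tissues also lay lower in 2x. All 18 skeletal muscle genes had log2 fold changes below 0 (median -1.88), with sums of 18740 to 33460 CPM in naive and 2613 to 33210 CPM in 2x. Of 8 tested mammary genes 7 were below 0 (median -2.36), 5 with an unadjusted p below 0.05, and their list summed to 54.2 to 340 CPM in naive and 10.6 to 94.0 CPM in 2x. The milk protein gene Csn2 was at 46.3 CPM in naive replicate 1, the library with the highest Hoxa9, Hoxa10 and Hoxc8, and at 2.32 in naive replicate 2, and it had no read in 2x replicates 2 and 3. Immune genes were above 0 in 11 of 12 (median 0.65). The part of these tissues in the Hox differences was not tested.

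In 3x skin the Hox genes lay on both sides of naive skin. Of the 27 genes, 6 lay higher without overlap and 0 lower, against 15.5% and 9.58% of all genes. Among them were Hoxa2, Hoxb4, Hoxb6, Hoxd3 and Hoxd4. The median log2 fold change was -0.12 for numbers 5 to 8 (0.04 without naive replicate 1), 0.37 for numbers 1 to 4 and 0.02 over all genes. All 18 muscle genes (median -0.93) and all 8 tested mammary genes (median -1.90) were below 0, and their part was not tested. Hoxd3 had the smallest p, at 3.71 ± 0.272 CPM in 3x (SD, n = 3) and 2.35 ± 1.09 in naive (SD, n = 2), a log2 fold change of 0.53 (SE 0.30; limma adjusted p = 0.787). The test by limma called 0 of 27, against 0.00586% of all genes, and 0 of 27 had an unadjusted p below 0.05, against 6.95% of all genes. The intervals remain wide: for Hoxa7 the log2 fold change was -0.49 with a 95% confidence interval from -1.13 to 0.15.

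In 3x against 2x, which shares its 2x libraries with the comparison of 2x and naive, 14 of 27 Hox genes lay higher without overlap and 0 lower, against 7.3% and 4.41% of all genes. These were Hoxa5, Hoxa7, Hoxa9, Hoxa10, Hoxb4 to Hoxb9, Hoxc4 to Hoxc6 and Hoxc8. The 10 genes of numbers 5 to 8 had a median log2 fold change of 1.25, numbers 1 to 4 one of 0.31, and all genes one of 0.03. Hoxa7 again had the smallest p, at 5.33 ± 1.72 CPM in 3x (SD, n = 3) and 1.74 ± 0.0566 in 2x (SD, n = 3), a log2 fold change of 1.18 (SE 0.25; limma adjusted p = 0.894). By limma 0 of 27 Hox genes passed, as did 0% of all genes, while 10 of 27 had an unadjusted p below 0.05, against 5.15% of all genes. Hair follicle means were 8.79, 2.59 and 0.742 in 2x and 5.02, 6.56 and 0.779 in 3x, and 16 of 18 muscle genes (median 0.95) and 10 of 10 endothelial genes (median 0.41) had log2 fold changes above 0. Fibroblast means were 8.12, 8.30 and 7.96 in 2x, 8.31 and 8.20 in naive and 8.29, 8.25 and 7.52 in 3x. The part of tissue composition in the Hox differences was not tested. Leaving out the 3 libraries richest in hair follicle genes (first exposure 1 and 2 and 2x 1), a choice made after seeing the data, gave a median for numbers 5 to 8 of -1.62 for 2x against naive and 1.499 for 3x against 2x, with all 10 genes on the same side as before.

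**Figure D4:**
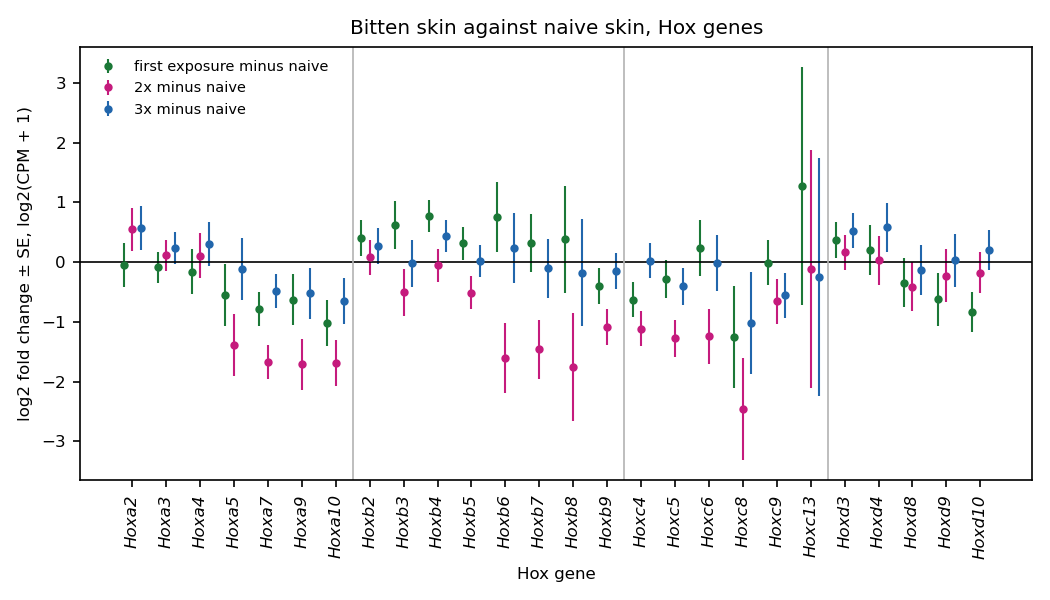
Log2 fold change (y axis, on the log2(CPM + 1) scale; bars are ± 1 SE from limma) of 26 of the 27 tested Hox genes (x axis, by cluster) in first exposure, 2x and 3x against the same 2 naive libraries. For 2x the points of Hoxa5 to Hoxa10, Hoxb6 to Hoxb9 and Hoxc4 to Hoxc8 lie below -1, while the HoxD points of all 3 comparisons lie between -0.83 and 0.58.

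After first exposure, HoxA and HoxB genes differed from naive skin in opposite directions on average, but not in every library. Log2 fold changes of 7 of 8 HoxB genes were above 0, with a median of 0.40, and 7 of 8 HoxA genes below 0, with a median of -0.35, beside 0.08 over all genes. Hoxb4 and Hoxb5 lay higher without overlap, and Hoxa7, Hoxa10, Hoxc5, Hoxd8, Hoxd9 and Hoxd10 lower, which makes 2 and 6 of 27 against 21% and 14% of all genes. Hoxb4 had the smallest p, at 21.1 ± 7.37 CPM (SD, n = 3) against 11.4 ± 0.515 in naive (SD, n = 2), a log2 fold change of 0.77 (SE 0.27; limma adjusted p = 0.215). By limma 0 of 27 passed, against 0.0117% of all genes, and 4 had an unadjusted p below 0.05, against 16.4% of all genes. The HoxB sum was 86.0, 100.1 and 33.9 CPM in the 3 first exposure libraries and 47.5 and 38.8 CPM in naive, so that replicate 3 lay below both naive libraries and the others above. It was replicate 3 whose hair follicle mean was 1.60 beside 8.95 and 9.24 in the others. Without the 3 libraries richest in hair follicle genes, which leaves 1 first exposure library, the HoxB median was -0.34. Hair follicle genes were above 0 in 22 of 23 (median 2.59), adipocyte genes below 0 in 12 of 12 (median -1.16, 11 without overlap) and endothelial genes below 0 in 10 of 10 (median -0.92, 9 without overlap). Adipocyte genes summed to 4550 and 5386 CPM in naive and to 1702 to 2782 CPM in first exposure, and endothelial genes to 346 and 434 CPM and to 124 to 283 CPM. The part of these tissues in the Hox differences was not tested. Without replicate 3, Hoxb4 passed, with a log2 fold change of 1.09 (limma adjusted p = 0.0250), as did 3.54% of all genes.

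Repeat exposure, 2x and 3x together (n = 6), was compared with first exposure (n = 3). Exposure and title series cannot be told apart in this comparison either. All 8 HoxB genes had log2 fold changes below 0, with a median of -0.73, while HoxA had a median of 0.05, HoxC of -0.58 and HoxD of 0.10, beside -0.06 over all genes. Without the 3 libraries richest in hair follicle genes, the HoxB median was 0.08 and the HoxC median 0.06. Hoxb5 was the 1 gene of 27 that lay lower without overlap, and 0 lay higher, against 5.17% and 3.07% of all genes. Hoxd10, which overlaps Hoxd11 in the annotation, had the smallest p. It was at 0.245, 0.112 and 0.776 CPM after first exposure and at 0.590, 2.11 and 0.931 in 2x and 1.70, 2.48 and 1.20 in 3x, so that the groups overlapped, with a log2 fold change of 0.84 (SE 0.27; limma adjusted p = 0.139). In limma's test 0 of 27 passed, against 0.82% of all genes, and 5 had an unadjusted p below 0.05, against 20.6% of all genes. Hair follicle genes were below 0 in 23 of 23 (median -2.74) and muscle genes in 18 of 18 (median -1.11). Adipocyte genes were above 0 in 12 of 12 (median 1.09), of which Adipoq and Cidec passed (limma adjusted p = 0.0351 each), and immune genes in 12 of 12 (median 1.24). The part of these tissues was not tested. Without first exposure replicate 3, 5 of 27 passed, where 13.3% of all genes did: Hoxd10 was higher in repeat exposure, and Hoxb3, Hoxb4, Hoxb8 and Hoxc9 were lower. The first exposure libraries left in that fit were both among the 3 richest in hair follicle genes.

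A moderated F-test over the 4 groups with replicates asked whether any of them differed. By limma 0 of 27 Hox genes passed, as did 0% of all genes, and 12 of 27 had an unadjusted p below 0.05, against 15.4% of all genes. Hoxa7 had the smallest value (limma adjusted p = 0.150). The spread within groups was wide for Hox genes. The residual SD on the log2(CPM + 1) scale had a median of 0.46 over the 27 genes, with a range from 0.28 for Hoxa3 to 2.51 for Hoxc13. The median was 0.29 over all 17064 genes and 0.32 over the 9871 genes within the range of mean levels of the Hox genes. Of the 27, 26 were above the median of all genes, and Hoxc13, Hoxb8, Hoxc8 and Hoxb6 were above their 90th percentile of 0.71.

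Other genes of body position and of the Hox pathway were read from lists of 9 cofactors, 16 limb and trunk genes, 11 craniofacial genes, 2 noncoding genes of the clusters and 22 chromatin regulators. By limma 0 of them passed in any of the 6 tests, and 0 to 4 of a list had an unadjusted p below 0.05 in a test, against 5.15% to 20.6% of all genes. The counts of 4 were 4 of 22 chromatin regulators for first exposure, beside 16.4% of all genes, and 4 of 16 limb and trunk genes for repeat exposure, beside 20.6%. Tbx5, a forelimb gene, was at 4.67 and 1.28 CPM in naive, 0.664, 0.279 and 1.81 in first exposure, 0.148, 0.370 and 0 in 2x, 0.681, 0.748 and 0.797 in 3x and 1.40 in saliva immune. Its values in 2x lay below all others except 1 first exposure library (2x against naive log2 fold change -1.63, SE 0.41; limma adjusted p = 0.257). Tbx4 and Pitx1, hindlimb genes, were at or below 3.73 and 1.49 CPM in every library. Tbx4 lay lower in every repeat exposure library than in every first exposure library (log2 fold change -0.96, SE 0.32; limma adjusted p = 0.152). Tbx15, which patterns dermis of the trunk, was the highest of the limb and trunk list, with 124 and 89.3 CPM in naive, 68.8, 68.4 and 84.6 in first exposure, 56.0, 44.3 and 110 in 2x, 54.9, 67.0 and 113 in 3x and 68.4 in saliva immune. In 2x it was high in replicate 3, as were Hoxd4, Hoxd8 and Hoxd9. Irx3 was next in that list, between 16.2 and 33.6 CPM. En1, a gene of ventral limb ectoderm, was at 2.85 to 6.31 CPM.

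The partners and regulators of Hox proteins were present in every library. Pbx2, a cofactor that binds DNA together with Hox proteins, was at 41.0 to 66.1 CPM over the 12 libraries. Kdm6b, a demethylase that removes the mark set by Polycomb, was at 76.2 to 172 CPM, and Kmt2a, a methyltransferase that maintains Hox expression, at 85.7 to 141 CPM. Of the noncoding genes in the clusters, Hotairm1 was at 0.502 to 2.43 CPM and Hoxb5os reached 4.29 CPM in first exposure replicate 2, the library with the highest Hoxb4, Hoxb5, Hoxb6, Hoxb7 and Hoxb8. Hoxb5os shares its locus with HoxB genes, so reads of the strands cannot be told apart here. Among craniofacial genes, Dlx5 was at 3.79 to 13.5 CPM.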

How the data were processed

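Total RNA of 12 mouse skin libraries was sequenced. Per the submitters' processing notes, reads were handled with STAR and Partek 8.0.19 on GRCm38.p6. Neither the annotation nor the counting program or its use of strand is given in the sources used here. The authors deposited CPM values, to which 0.0001 had been added in every cell, and a value of 0.0001 is given here as 0. Depth was estimated from the CPM of 1 read, of which 73.7% to 79.4% of the values between 0.01 and 3 CPM were whole multiples (within 0.02 reads). Since whole reads were not obtained for all values, no count test was run.

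Genes with at least 1 CPM in 2 of 11 libraries (17064) were compared on log2(CPM + 1) with limma 3.58.1 (trend in the prior variance) in R 4.3.3, with Benjamini-Hochberg adjustment over all of them. Fold changes are on that scale, which understates the change of low genes. The saliva immune library stayed out of the fits. The 4 groups shared 1 estimate of the spread (7 residual degrees of freedom), and repeat exposure was fitted as 1 group. Groups did not overlap where every value of one lay above every value of the other. Coordinates are RefSeq's for GRCm38.p6, and exon lengths come from GENCODE M21. The fit was tested on simulated data. Tables were made with pandas 2.3.3 and numpy 2.4.6 in Python 3.11.15, and plots with matplotlib 3.10.9.

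Library values were given for Hox genes with a mean of at least 5 CPM, and for each comparison the called Hox genes or, where none was called, the 1 with the smallest p was named. Hoxa7 to Hoxa10, Hoxb8 and Hoxd10 were added after their values were seen. From the other lists the called genes or the 2 with the highest mean were named, and Tbx5, Tbx4, Pitx1, Tbx15 and En1 always. A few genes that these rules name are not reported here, and they stay in the counts. The Hox genes and the lists were chosen with earlier results of these data known. The alternatives tried were other pseudocounts (0.5 and 0.1), no filter or 5 CPM, median-of-ratios scaling, quantile normalization, fits of only the groups compared, robust moderation, array weights, a hair follicle or fibroblast covariate and leaving out each library. Leaving out the 3 libraries richest in hair follicle genes was added after seeing the data.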

Additional observations from a re-analysis of the deposited data

Results flagged for a closer look

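Among the 6 repeat exposure libraries, 2 of the 27 tested Hox genes had a library that stood far from the rest. Hoxa10 was at 3.04 CPM in 3x replicate 3, the highest of the 6, where the next was 0.681. Hoxb5 was at 1.06 CPM in 2x replicate 3, the lowest of the 6, where the next was 2.48. Chance marks about 1 in 20 groups of values from a single normal population in this way, and 27 genes were examined. Here 2x and 3x were pooled, and for both genes all 3x values lay above all 2x values, so that rate may not hold. In 3x replicate 3 Hoxa9 was also the highest of the 6, at 3.54 CPM, and in 2x replicate 3 Hoxb6, Hoxb7 and Hoxb8 were the lowest, at 0.310, 0.559 and 0.248 CPM.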

How the results depend on the processing

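The Hox gene with the smallest p in each comparison kept its direction under every alternative in which it was tested. Medians near 0 did not. The median of numbers 5 to 8 in 3x against naive went from -0.12 to 0.04 without naive replicate 1, and that of numbers 1 to 4 in 2x against naive from 0.10 to -0.11 without the same library. Over all tested Hox genes, the median for first exposure went from -0.05 to 0.05 with no filter and 0.06 with 5 CPM, and that for repeat against first exposure from -0.23 to 0.08 without the 3 libraries richest in hair follicle genes. For repeat against first exposure, the HoxA median went from 0.05 to -0.10 without 3x replicate 3, and the HoxD median from 0.10 to -0.0036 without 2x replicate 3. No paired analysis was possible because the labels give no replicate number that ties samples of different groups. Array weights, whose estimation stopped before its tolerance was reached, called 1 Hox gene for first exposure against naive (Hoxb4, where 10.3% of all genes were called), 1 for 2x against naive (Hoxa7, 0.199%), 19 for repeat against first exposure (7 higher, 12 lower, with 10299 of 17064 genes called in all) and 9 over the 4 groups (13% of all genes). A fibroblast covariate called 1 for 2x against naive (Hoxa7, log2 fold change -1.73, limma adjusted p = 0.0392, with a range from 0.0392 to 0.793 over the alternatives), where 0.0938% of all genes were called. Leaving out 1 library at a time gave 0 to 1 call for first exposure against naive, 0 to 5 for repeat against first exposure and 0 to 2 over the 4 groups, with every call made without first exposure replicate 3, and 0 for 2x against naive, 3x against naive and 3x against 2x. Over the 4 groups, these 2 were Hoxb6 and Hoxb8, where 0.159% of all genes passed. The cause was not tested. With a minimum of 5 CPM, 16 Hox genes were tested in place of 27. The other alternatives, among them those without the 3 libraries richest in hair follicle genes, called 0 Hox genes. The median log2 fold change of numbers 5 to 8 in 2x against naive ran from -1.71 to -1.10 with 1 library of either group left out. The naive group has 2 libraries, and values under 0.240 CPM rest on 3 reads or fewer in the shallowest library.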
